A study of Mus musculus with 6 samples.

Results

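The CC and CXC chemokines described here are 9 mouse genes, Ccl2, Ccl5, Ccl7, Ccl11, Cxcl1, Cxcl2, Cxcl5, Cxcl10 and Cxcl12. The rule that finds them uses gene names and no measured value, although the list was drawn up with earlier results of these data known. Every probe whose only annotated symbol was 1 of these was taken, which gave 12 of the 38467 probes on the array. Cxcl12 had 4 probes and each other gene 1. All 9 genes were among the 27046 genes or unnamed probes tested, and 7 of the 9 also passed a filter on low signal described below.

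The cells were C3H10T1/2, a mouse mesenchymal line able to form fat, muscle, bone or cartilage cells. The 3 dexamethasone arrays came from cultures given 1 µM dexamethasone, a synthetic agonist of the glucocorticoid receptor, for 90 minutes. The 3 vehicle arrays came from cultures given DMSO and labelled with the same time. All cultures were grown in medium with serum, both groups are cultures of a single line, and the series description calls the replicates biological. Each array carried 1 sample in Cy3 and a common RNA pool in Cy5, made per the labels from DMSO, dexamethasone and myostatin treated cells, and the values are read here as log2 ratios of a sample to the pool, which give no absolute level. No source states that scale, and 4 arrays hold between 2 and 27 values beyond 100 in size, which no log2 ratio reaches; none belongs to the 9 genes. With all cells of a culture lysed together, fewer expressing cells and less RNA per cell cannot be told apart.

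Chemokines are small secreted proteins that draw leukocytes along a concentration gradient by binding G protein-coupled receptors. In the CC class the first cysteines of the protein are adjacent, and in the CXC class another residue lies between them. Stromal cells such as fibroblasts secrete several of them when NF-kappaB is activated, and repression of NF-kappaB-driven genes is a well-known action of the glucocorticoid receptor. Cxcl12 differs from the inflammatory chemokines in being made by stromal cells without a stimulus.

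Promoter sequences show which of these genes carry an NF-kappaB consensus next to their start. The RefSeq promoter table (GRCm38.p6) matched 4 of the 9 genes, and Ccl2, Ccl5, Ccl7, Ccl11 and Cxcl5 were unmatched. The 250 bases before the start are given 5′ to 3′ on the gene's strand. Capitals mark matches, on either strand, to the 10-base NF-kappaB consensus. The windows are chr5:90890995-90891244 (plus strand) for Cxcl1, chr5:90903649-90903898 (plus strand) for Cxcl2, chr5:92348890-92349139 (minus strand) for Cxcl10 and chr6:117168285-117168534 (plus strand) for Cxcl12.
Cxcl1: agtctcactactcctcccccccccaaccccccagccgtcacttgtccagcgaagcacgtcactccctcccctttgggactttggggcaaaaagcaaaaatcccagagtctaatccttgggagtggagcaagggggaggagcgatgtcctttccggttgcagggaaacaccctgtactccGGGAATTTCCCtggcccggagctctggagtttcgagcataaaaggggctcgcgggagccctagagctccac
Cxcl2: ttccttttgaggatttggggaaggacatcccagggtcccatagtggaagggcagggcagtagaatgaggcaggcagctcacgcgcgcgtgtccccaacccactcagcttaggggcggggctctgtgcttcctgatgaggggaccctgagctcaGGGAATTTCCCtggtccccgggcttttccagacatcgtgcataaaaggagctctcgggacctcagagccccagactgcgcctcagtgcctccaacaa
Cxcl10: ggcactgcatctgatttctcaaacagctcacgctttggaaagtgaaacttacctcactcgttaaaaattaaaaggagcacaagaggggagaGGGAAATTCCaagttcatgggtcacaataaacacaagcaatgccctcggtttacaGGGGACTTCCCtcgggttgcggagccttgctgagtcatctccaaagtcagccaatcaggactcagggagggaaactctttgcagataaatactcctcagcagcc
Cxcl12: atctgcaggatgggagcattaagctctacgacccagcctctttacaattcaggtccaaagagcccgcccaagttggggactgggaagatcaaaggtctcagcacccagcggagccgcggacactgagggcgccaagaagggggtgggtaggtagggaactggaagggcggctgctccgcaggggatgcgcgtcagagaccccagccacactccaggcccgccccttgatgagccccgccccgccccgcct

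The neighbouring genes Cxcl1 and Cxcl2 shared the stretch GGGAATTTCCctgg, which began 71 bases before the start of Cxcl1 and 97 bases before that of Cxcl2. Capitals in this stretch mark the match on the plus strand only. In each of these promoters 2 matches, 1 per strand, overlapped by all but 1 base. Cxcl10 held GGGAAATTCC 159 bases before its start and overlapping matches from 104 bases before it, and Cxcl12 held none. Of the 32851 windows of this length in the table, 7.25% held at least 1 match. The AP-1 motif TGANTCA, searched on both strands, occurred in the Cxcl10 window alone among the 4 and in 6.75% of all windows. A match describes the letters and is no evidence of binding in these cells.

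Ccl2 and Ccl7 lay lower with dexamethasone on every array, Cxcl5 lay lower by a smaller amount, Cxcl12 lay slightly lower, and the other 5 chemokines had group differences smaller than or similar to their spread between arrays. Ccl7 was 4.93-fold, Ccl2 3.48-fold and Cxcl5 2.57-fold below vehicle. In the limma fit over all 27046 genes and unnamed probes, 0 of the 9 passed a Benjamini-Hochberg adjusted p of 0.05, and 0% of all features did. At an unadjusted p under 0.05, 3 of the 9 were lower (Ccl2, Ccl7 and Cxcl5), against 0.995% of all features, and 0 of the 9 were higher, against 4.43% of all features. After the low-signal filter, which left 7 of the 9, 2 passed the adjusted threshold as lower (Ccl2 and Ccl7) and 0 as higher. Of the 17152 features left, 0.0175% passed as lower (3 features, the remaining one being Rgs4) and 0.152% as higher. The filter left out any probe with a missing value, a value beyond 10 in size or a ratio of whole numbers from 1 to 10 on any array, since spots of very few intensity units can give such ratios.

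**Figure D1:**
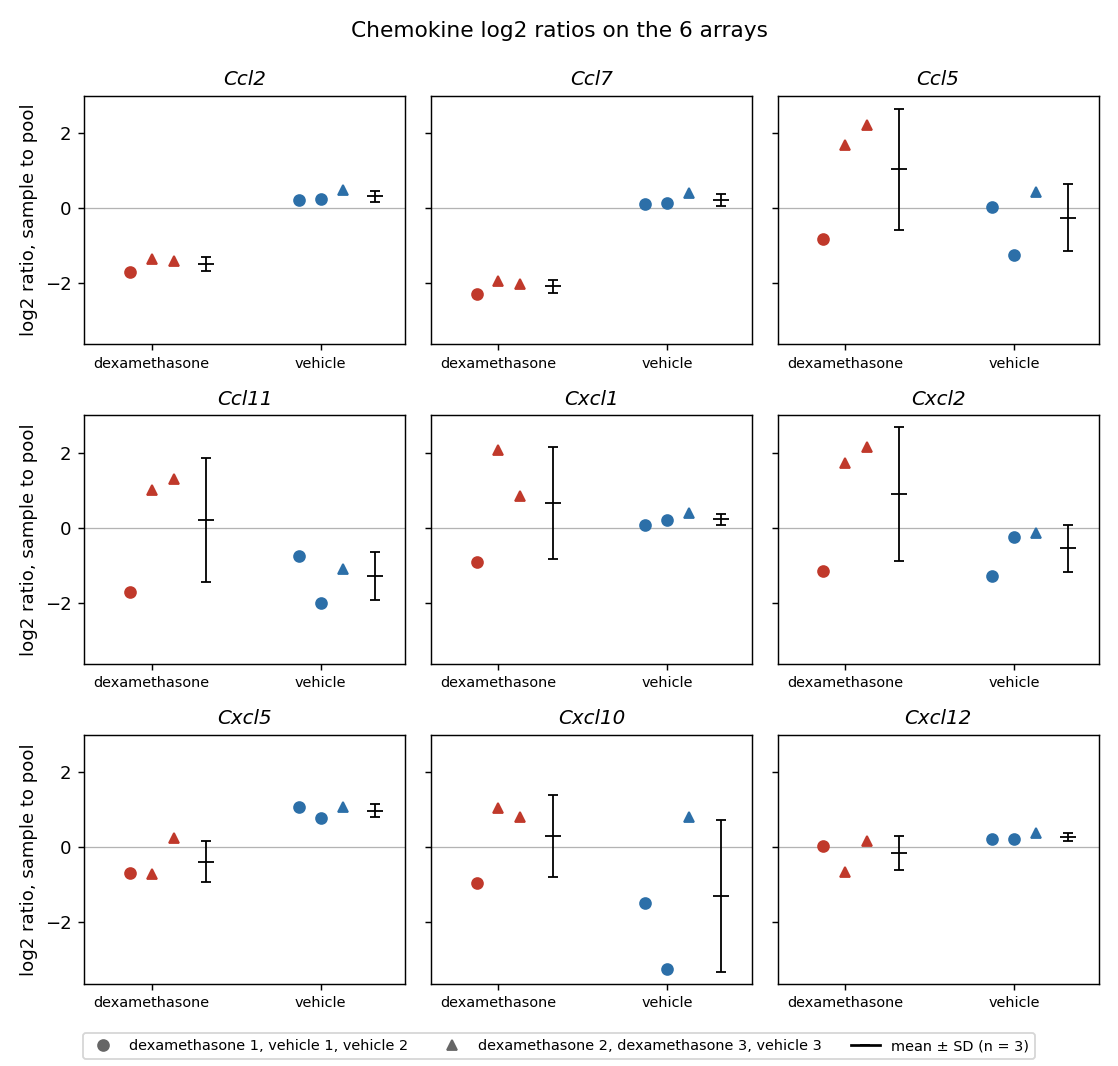
Log2 ratio of sample to pool (vertical axis) for the 9 chemokine genes on the 3 dexamethasone and 3 vehicle arrays, Cxcl12 as the mean of its 4 probes, with mean ± SD beside the points. Circles and triangles mark the 2 sets of arrays that resembled each other. The dexamethasone points lie below all vehicle points for Ccl2, Ccl7, Cxcl5 and Cxcl12, while in Ccl5, Ccl11 and Cxcl2 the triangles of dexamethasone 2 and 3 lie at 1.00 or above and dexamethasone 1 lies at -0.82 or below.

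The arrays were uneven, and this touches several members. Across all probes the arrays fell into 2 sets, dexamethasone 1 with vehicle 1 and 2, and dexamethasone 2 and 3 with vehicle 3. Spearman correlations ran from 0.34 to 0.57 within a set and from -0.33 to 0.07 between sets. The array medians ran from -0.12 to 0.57 for dexamethasone and from -0.12 to 0.16 for vehicle, and missing values numbered 1695 to 4290 on the dexamethasone and 552 to 932 on the vehicle arrays. The median difference over all features tested was 0.32, and 0.02 after each array was centred on its own median. The dyes are labelled, whereas the direction of the ratio is stated nowhere. Sample over pool is taken as likely because 5 of 6 textbook glucocorticoid-induced genes then lie higher with dexamethasone at an unadjusted p under 0.05. Read the other way, every lower value here would be higher, with 3 of the 9 chemokines higher, against 0.995% of all features, and 0 lower, against 4.43%. With 3 arrays against 3, an exact permutation test cannot go below 0.1, so none was used.

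Ccl2 and Ccl7 encode monocyte attractants that signal through the receptor Ccr2, and their genes are neighbours on chromosome 11. Ccl7 (probe mMC005764) stood at -2.29, -1.96 and -2.03 on dexamethasone 1, 2 and 3, against 0.11, 0.13 and 0.39 on vehicle 1, 2 and 3. All dexamethasone values of Ccl7 lay more than 2 log2 units below the lowest vehicle value. The means were -2.09 ± 0.18 with dexamethasone and 0.21 ± 0.16 with vehicle (SD, n = 3 each), a difference of -2.30 ± 0.20 (SE), with a 95% interval from -2.81 to -1.80. Its limma adjusted p was 0.141 over all features, where it ranked 12 by p, and 0.0401 after the filter.

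Ccl2 (probe mMC022537) stood at -1.71, -1.36 and -1.43 on dexamethasone 1, 2 and 3, against 0.20, 0.24 and 0.47 on vehicle 1, 2 and 3. The groups did not overlap, and the order of the 3 arrays within the dexamethasone group was the same as for Ccl7. The means were -1.50 ± 0.18 with dexamethasone and 0.30 ± 0.15 with vehicle (SD, n = 3 each). The difference of -1.80 ± 0.20 (SE) had a 95% interval from -2.31 to -1.30 and ranked 35 by p, with a limma adjusted p of 0.188 over all features and 0.0487 after the filter. By the size of the difference, Ccl7 was number 22 and Ccl2 number 49 of the 6337 features below 0 after the filter.

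Over the 22880 features measured on all arrays, the median SD was 0.71 among dexamethasone and 0.17 among vehicle arrays, and for Ccl7 and Ccl2 the SD was 0.18 for both among dexamethasone and 0.16 and 0.15 among vehicle arrays. The pair thus varied less than the typical feature among dexamethasone arrays and about as much among vehicle arrays. Within the set of dexamethasone 1 and vehicle 1 and 2, Ccl7 differed by -2.41 and Ccl2 by -1.93. Within the set of dexamethasone 2 and 3 and vehicle 3 the differences were -2.38 and -1.86, nearly the same. Centring each array on its median brought the vehicle values closer together, at 0.21, 0.25 and 0.23 for Ccl7 and 0.30, 0.36 and 0.31 for Ccl2. The dexamethasone values stayed about as far apart, at -2.175, -2.53 and -2.435 for Ccl7 and -1.588, -1.929 and -1.835 for Ccl2. The centred differences were -2.61 ± 0.253 for Ccl7 and -2.11 ± 0.252 for Ccl2 (SE). Over all features their limma adjusted p was then 0.537 and 0.738, higher than without centring.

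The filtered calls of the pair depended on single arrays, on the scaling and on both blocks tried, although in all 15 alternatives over the full table Ccl2 stayed at or below -1.70 and Ccl7 at or below -2.20. Without vehicle 1, 2 or 3, or without dexamethasone 2 or 3, neither gene passed after the filter; without dexamethasone 2 the limma adjusted p was 0.134 for Ccl7 and 0.142 for Ccl2. Both passed without dexamethasone 1, with adjusted p of 0.0304 for Ccl7 and 0.0327 for Ccl2. Centring on the medians of the probes kept left both below the threshold (0.0292 and 0.0338), whereas centring on the medians of all probes did not (0.0799 and 0.168). With the array set as a block the filtered adjusted p was 0.0855 for Ccl7 and 0.129 for Ccl2, and with the replicate number as a block 0.536 for both. The differences with the array set as a block were -2.40 for Ccl7 and -1.89 for Ccl2. Ccl2 and Ccl7 are related in sequence, and hybridisation of 1 transcript to the other's probe was not tested.

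**Figure D2:**
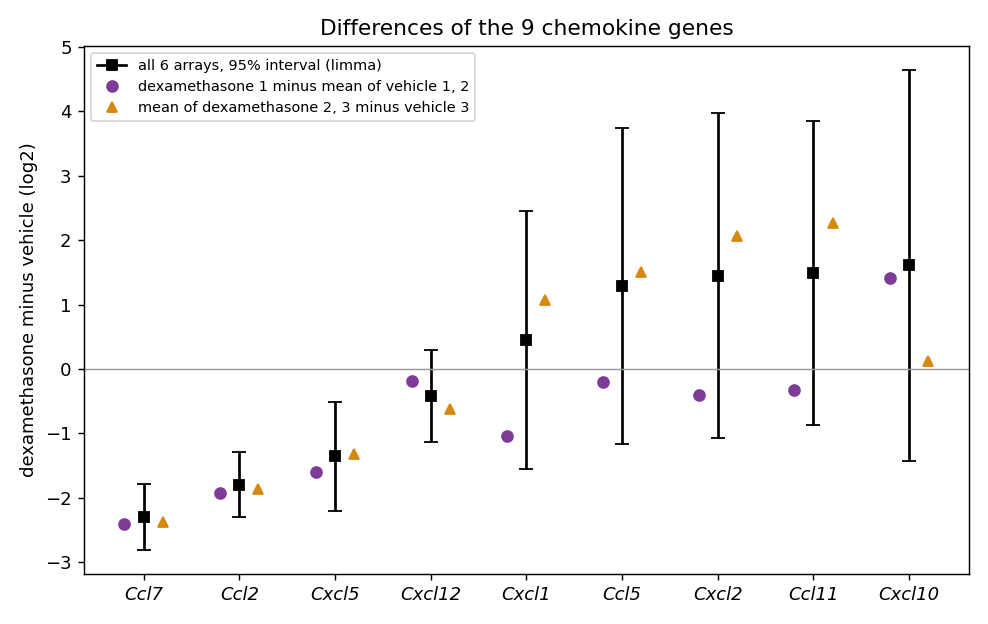
Dexamethasone minus vehicle (log2) for the 9 chemokine genes, ordered by size. Squares give the difference over all 6 arrays with its 95% interval from limma, circles dexamethasone 1 minus the mean of vehicle 1 and 2, and triangles the mean of dexamethasone 2 and 3 minus vehicle 3. The intervals of Ccl7, Ccl2 and Cxcl5 lie below 0, and in Cxcl1, Ccl5, Cxcl2 and Ccl11 the circle lies below 0 and the triangle above it.

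Cxcl5, Cxcl1 and Cxcl2 encode neutrophil attractants that act on the receptor Cxcr2, and the genes lie in a chemokine cluster on chromosome 5. Cxcl5 stood at -0.68, -0.71 and 0.24 on dexamethasone 1, 2 and 3, against 1.07, 0.77 and 1.08 on vehicle 1, 2 and 3. Dexamethasone 3 was the closest to vehicle, yet the groups did not overlap. The difference was -1.36 ± 0.33 (SE), with a 95% interval from -2.21 to -0.51. The limma adjusted p was 0.609 over all features and 0.398 after the filter. The difference was -1.61 within the set of dexamethasone 1 and -1.32 within the other set.

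Unlike those of Cxcl5, the dexamethasone values of Cxcl1 and Cxcl2 did not all lie below the vehicle values. Cxcl1 stood at -0.91, 2.07 and 0.83 on dexamethasone 1, 2 and 3, against 0.08, 0.20 and 0.39 on vehicle 1, 2 and 3. Dexamethasone 1 lay below all vehicle values and the other 2 dexamethasone arrays above them, with means of 0.67 ± 1.49 for dexamethasone and 0.22 ± 0.16 for vehicle (SD, n = 3 each). The difference was 0.45 ± 0.79 (SE), with an interval from -1.56 to 2.45 that covers falls and rises larger than that of Cxcl5. It was -0.26 without dexamethasone 2 and -0.38 after quantile normalization.

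Cxcl2 stood at -1.16, 1.71 and 2.14 on dexamethasone 1, 2 and 3, against -1.28, -0.24 and -0.14 on vehicle 1, 2 and 3. Again dexamethasone 2 and 3 were high and dexamethasone 1 lay among the vehicle values. The difference was 1.45 ± 0.99 (SE), with an interval from -1.07 to 3.97 and a limma adjusted p of 0.732. Within the array sets Cxcl1 differed by -1.04 and 1.07 and Cxcl2 by -0.41 and 2.06, so the sign of both turned with the set.

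Ccl5, a T-cell attractant, and Ccl11, the eosinophil attractant eotaxin, were, like Cxcl2, high on dexamethasone 2 and 3 and low on dexamethasone 1. Ccl5 stood at -0.82, 1.68 and 2.20 on dexamethasone 1, 2 and 3, against 0.03, -1.27 and 0.43 on vehicle 1, 2 and 3. Ccl11 stood at -1.71, 1.00 and 1.31 on dexamethasone 1, 2 and 3, against -0.75, -2.00 and -1.11 on vehicle 1, 2 and 3. In both, dexamethasone 2 and 3 exceeded every vehicle value and dexamethasone 1 did not. The value of 1.00 for Ccl11 on dexamethasone 2 equals a ratio of small whole numbers, and the filter left the gene out for it.

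The differences were 1.29 ± 0.96 for Ccl5 and 1.49 ± 0.92 for Ccl11 (SE), with 95% intervals from -1.16 to 3.74 and from -0.87 to 3.85. The limma adjusted p was 0.732 for both. Within the set of dexamethasone 1 the differences were -0.21 for Ccl5 and -0.33 for Ccl11, and within the other set 1.51 for Ccl5 and 2.26 for Ccl11. Leaving out dexamethasone 1 put Ccl5, Ccl11, Cxcl1 and Cxcl2 at an unadjusted p under 0.05 as higher, 4 of the 9, against 25.1% of all features as higher in that fit. With the array set as a block, the differences were 0.65 for Ccl5, 0.97 for Ccl11, 0.01 for Cxcl1 and 0.83 for Cxcl2. None of the 4 passed after adjustment without dexamethasone 1, with limma adjusted p from 0.0784 for Cxcl2 to 0.162 for Cxcl1.

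Cxcl10, an interferon-induced attractant of T cells through the receptor Cxcr3, had the widest vehicle spread of the 9. It stood at -0.95, 1.05 and 0.82 on dexamethasone 1, 2 and 3, against -1.49, -3.23 and 0.81 on vehicle 1, 2 and 3. Vehicle 3 sat with the 2 higher dexamethasone arrays, and its value equals a ratio of small whole numbers, so the filter left Cxcl10 out. The difference was 1.61 ± 1.19 (SE), with an interval from -1.43 to 4.65 and a limma adjusted p of 0.732. It was 1.41 within the set of dexamethasone 1 and 0.13 within the other, and 0.77 with the array set as a block. It was 0.65 without vehicle 2 and 2.66 without vehicle 3.

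Cxcl12, the stromal ligand of the receptor Cxcr4, had the smallest difference of the members below 0. As the mean of 4 probes it stood at 0.03, -0.65 and 0.18 on dexamethasone 1, 2 and 3, against 0.22, 0.22 and 0.39 on vehicle 1, 2 and 3. The groups did not overlap, but dexamethasone 3 lay just below vehicle 1. The difference was -0.42 ± 0.28 (SE), with an interval from -1.14 to 0.30 and a limma adjusted p of 0.732, and it was -0.17 without dexamethasone 2. The 4 probes differed by -0.56, -0.49, -0.42 and -0.22, all below 0, and dexamethasone 2 gave the lowest value on each. Of these probes only mMC021212 kept the groups apart. In the probe annotation, mMA033275 and mMR030418 share all their accessions, as do mMA033949 and mMC021212, so the 4 probes are not independent of each other.

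Of the 9 genes, 4 (Ccl2, Ccl7, Cxcl5 and Cxcl12) had all dexamethasone values below all vehicle values, against 7.29% of the 22880 features measured on all arrays. The same 4 did so after median centring, against 3.99%. None of the 9 had all dexamethasone values above all vehicle values, against 9.95% of features. With median centring 3 of the 9 were lower at an unadjusted p under 0.05, against 1.03% of features, and with quantile normalization 3 of the 9, against 1.57%. These 3 were Ccl2, Ccl7 and Cxcl5 under both, and likewise in each of the other 13 settings tried. The median difference of the 9 was 0.45, close to the 0.32 of all features, and single genes ranged from -2.30 to 1.61, with 4 below 0 and 5 above.

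**Figure D3:**
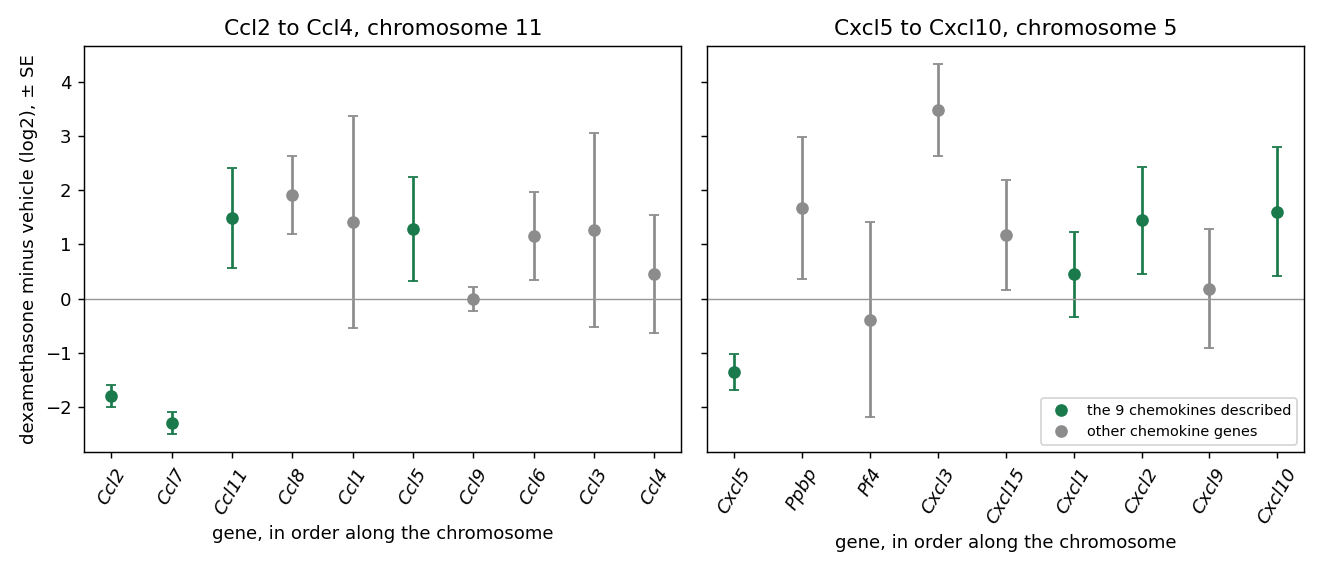
Dexamethasone minus vehicle (log2, with SE bars) for the tested chemokine genes from Ccl2 to Ccl4 on chromosome 11 and from Cxcl5 to Cxcl10 on chromosome 5, in their order along the chromosome and not to scale. Green points are genes of the 9 described here and grey points other chemokine genes. Ccl2, Ccl7 and Cxcl5, the first drawn on each chromosome, lie below 0, and their neighbours Ccl11 and Ppbp lie above it with wider bars.

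Of the other chemokine genes tested between Ccl2 and Ccl4 and between Cxcl5 and Cxcl10, Pf4 and Ccl9 alone lay below 0. On chromosome 11, Ccl2 and Ccl7 are followed by Ccl11, Ccl12 (not tested), Ccl8 and Ccl1, of which Ccl11, Ccl8 and Ccl1 differed by 1.49 ± 0.92, 1.91 ± 0.72 and 1.41 ± 1.97 (SE). Further along, Ccl9 differed by -0.01 ± 0.22 (SE), and Ccl3 by 1.27 ± 1.80, an error several times larger. On chromosome 5, Cxcl5 at -1.36 is followed by Ppbp at 1.68 ± 1.31 and Pf4 at -0.39 ± 1.80 (SE), both platelet chemokines. Cxcl3, another neutrophil attractant, differed by 3.49 ± 0.85 (SE) and had no value on dexamethasone 1. None of these neighbours passed limma's adjusted threshold.

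The genes whose pattern over the 6 arrays was most like that of Ccl2 and Ccl7 were found by the root mean square difference after each gene was centred on its own mean, among 16509 other genes with values on all arrays. Closest to both was Rgs4, which encodes a GTPase activator for G protein alpha subunits, at 0.15 log2 units from Ccl7 and 0.22 from Ccl2. Ccl2 and Ccl7 lay 0.25 apart, so each was among the 3 genes closest to the other. Has2, a hyaluronan synthase, lay 0.23 from Ccl2 and 0.37 from Ccl7. The remaining genes were 2610203C20Rik (0.29) and the repressor gene Tgif1 (0.29) for Ccl2, and the aryl hydrocarbon receptor gene Ahr (0.43) and Tnfrsf11b (0.46), which encodes osteoprotegerin, for Ccl7.

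In each of these 6 genes all dexamethasone values lay below all vehicle values, against 7.29% of features measured on all arrays. That follows from the choice by likeness on these same arrays and is no separate result. Their differences ran from -2.16 ± 0.39 for Ahr to -1.28 ± 0.18 for 2610203C20Rik (SE). Rgs4 differed by -2.16 ± 0.18 (SE), with a limma adjusted p of 0.141 over all features and 0.0358 after the filter. The other 5 did not pass the adjusted threshold in either fit, and Tnfrsf11b was left out by the filter. Among the members themselves, Cxcl5 was the next closest to Ccl2, at 0.39. Ccl5 and Ccl11 formed the other close pair, 0.29 apart, and lay 1.82 and 1.89 from Ccl2. Likeness over 6 arrays that differ in quality describes these arrays.

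**Figure D4:**
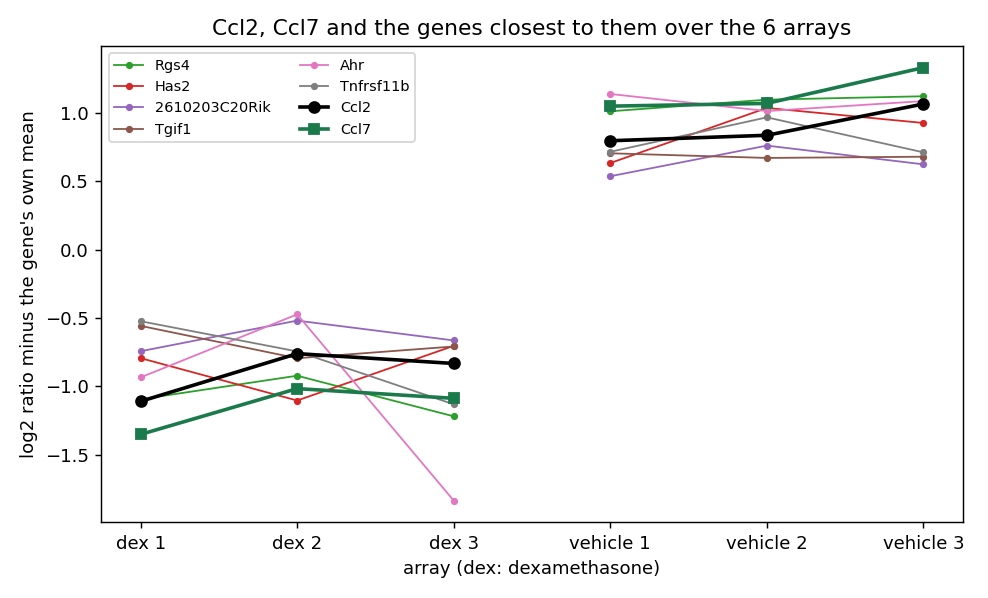
Log2 ratio minus the gene's own mean over the 6 arrays (vertical axis) for Ccl2, Ccl7 and the 6 other genes closest to either. Dexamethasone arrays are on the left and vehicle arrays on the right. All 8 genes lie below their mean on the dexamethasone arrays and above it on the vehicle arrays, and Ahr departs most, on dexamethasone 3. The 6 other genes were chosen for their likeness on these same arrays.

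Most other chemokine ligands lay above 0, where 31.8% of all features lay below 0. At an unadjusted p under 0.05, 0.995% of all features were lower and 4.43% higher. Of 13 other CC ligands tested, 3 lay below 0 and 10 above, 0 were lower and 1 was higher at an unadjusted p under 0.05, and 0 passed the adjusted threshold. That gene was Ccl8, another monocyte attractant of the same subfamily as Ccl2 and Ccl7. It stood at 0.93, 3.52 and 2.39 on dexamethasone 1, 2 and 3, against -0.03, 0.87 and 0.28 on vehicle 1, 2 and 3, with a limma adjusted p of 0.732. Its unadjusted p was 0.0449, 0.0805 with the array set as a block and 0.274 with quantile normalization, and it passed 0.05 in 1 of the 6 fits that left out an array, that without dexamethasone 1. The next smallest p-values belonged to Ccl25 and Ccl24, at 0.97 ± 0.54 and 2.69 ± 1.56 (SE). The lowest difference, -6.92 ± 6.26 (SE) for Ccl17, came from a single value of -21.06 on dexamethasone 3. Of 11 other CXC, CX3C and XC ligands, 3 lay below 0 and 8 above, and Cxcl3 alone was higher at an unadjusted p under 0.05, a call that ended with the array set as a block. After median centring 3 of the 13 and 5 of the 11 lay below 0, against 49.2% of all features. The lists' medians were 1.01 and 0.72, against 0.32 for all features.

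Among 14 chemokine receptors, which leukocytes mainly express, 0 lay below 0, 14 lay above and 0 passed at either threshold, with a median of 0.96, where 31.8% of all features lay below 0. After median centring Ccr2 (-0.25) and Ccr10 (-0.02) lay below 0, and with quantile normalization 5 of the 14 did, against 49.2% and 51.8% of all features. Among receptors of the ligands described above, Ccr2 differed by 0.06 ± 1.21, Cxcr2 by 1.41 ± 1.37 and Cxcr4 by 0.66 ± 0.90 (SE). The smallest p-values of the list belonged to Cxcr1, Xcr1 and Cxcr3, which differed by 3.17 ± 1.60, 1.82 ± 1.30 and 1.68 ± 1.36 (SE). Only 5 of the 14 had a probe that passed the low-signal filter. Of 11 atypical receptors and chemokine-processing proteins, 1 was higher and 0 were lower at an unadjusted p under 0.05, against 4.43% and 0.995% of all features. It was Sdc4, a heparan sulfate proteoglycan that binds chemokines, at 1.42 ± 0.22 (SE). Mmp9, a protease that trims chemokines, differed by -1.06 ± 0.46 and the scavenging receptor Ackr4 by 1.54 ± 1.06 (SE).

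Genes driven by NF-kappaB went both ways. Of 19 tested, 5 were lower and 3 higher at an unadjusted p under 0.05, against 0.995% and 4.43% of all features. After adjustment 0 passed. Their median was 0.00, against 0.32 for all features, and 9 lay below 0, against 31.8%. After median centring the median was -0.31, against 0.02 for all features, and 11 of the 19 lay below 0, against 49.2%. The 3 with the smallest p are named first. Ptgs2, which encodes cyclooxygenase-2, was lower by a difference of -1.27 ± 0.18 (SE). Lcn2, an iron-siderophore binding protein, at 4.99 ± 0.93 (SE) and Nfkbiz, a nuclear regulator of NF-kappaB, at 0.97 ± 0.16 (SE) were higher. The call on Nfkbiz ended with median centring and with quantile normalization. The others lower were Irf1 (-1.65 ± 0.52), Tnfaip3 (-0.73 ± 0.23), Relb (-0.73 ± 0.23) and Nfkb2 (-0.64 ± 0.24, SE). The other one higher was Nfkbia (1.325 ± 0.259, SE). Among regulators of chemokine mRNA decay, 1 of 9 was higher and 0 lower. This was Zfp36 (tristetraprolin), which promotes the decay of AU-rich chemokine mRNAs, at 0.55, 1.05 and 0.93 on dexamethasone 1, 2 and 3, against -0.75, -0.66 and -0.63 on vehicle 1, 2 and 3. Khsrp and Zc3h12a, also decay factors, differed by 0.36 ± 0.21 and 0.52 ± 0.33 (SE), where the median of all features was 0.32. After median centring Khsrp differed by 0.05, Zc3h12a by 0.22 and Zfp36 by 1.21.

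Of 13 interferon-stimulated genes, the class to which Cxcl10 belongs, 3 were lower and 0 higher at an unadjusted p under 0.05, and 0 passed after adjustment. In this list 10 lay below 0, against 31.8% of all features, with a median of -0.33, against 0.32. After median centring 10 lay below 0, against 49.2%, with a median of -0.64, against 0.02. The 3 were Ifit1, Ifit2 and Ifit3, antiviral proteins, at -1.15 ± 0.21, -0.87 ± 0.24 and -1.01 ± 0.30 (SE), with all dexamethasone values below all vehicle values in each. The call on Ifit2 ended without vehicle 2, and that on Ifit3 without vehicle 1 or 2 and with the replicate block. Of 19 receptors and transducers upstream of chemokine genes, 1 was lower and 1 higher. Tlr2, a receptor for bacterial lipoproteins, differed by -1.01 ± 0.17 and Il6ra, a subunit of the interleukin-6 receptor, by 1.76 ± 0.23 (SE). Ifngr1, a subunit of the interferon-gamma receptor, differed by 0.34 ± 0.17 (SE), and by 0.04 after median centring. For all these lists the unadjusted background is 0.995% of features lower and 4.43% higher.

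**Figure D5:**
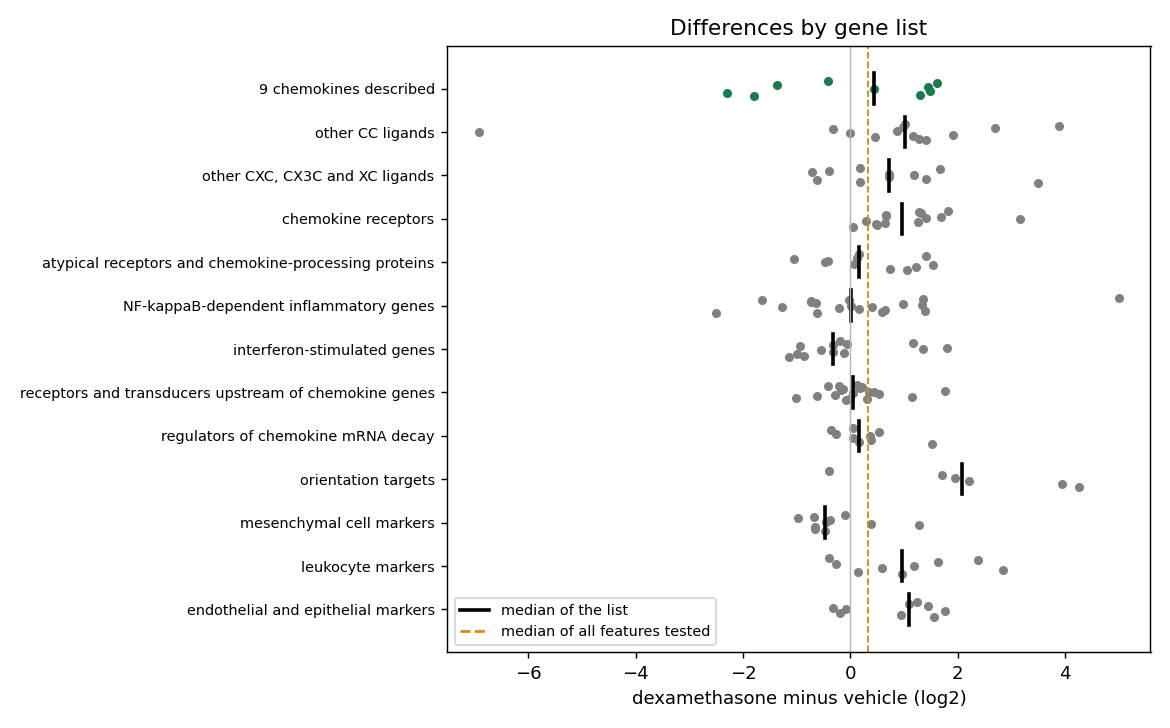
Dexamethasone minus vehicle (log2, horizontal axis) for the 9 chemokines (green, top row) and for each tested gene of the other lists (grey). Black bars are list medians and the dashed line is the median of all features, 0.32. The 9 chemokines spread from -2.30 to 1.61 on both sides of the line, while all 14 chemokine receptors lie above 0, of which Ccr2 and Ccr10 lay below 0 after median centring.

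Markers of other cells and of the line itself were read the same way. Of all features, 31.8% lay below 0, and the median was 0.32. At an unadjusted p under 0.05, 0.995% were lower and 4.43% higher. The 6 glucocorticoid-induced genes used for orientation had a median of 2.08, led by Dusp1, a MAP kinase phosphatase, at 4.26 ± 0.18, Fkbp5, a receptor co-chaperone, at 3.93 ± 0.35 and the clock gene Per1 at 2.21 ± 0.23 (SE). Of 10 mesenchymal markers, 8 lay below 0 and 2 above, with a median of -0.47, and 1 was lower at an unadjusted p under 0.05 (Twist1, which differed by -0.98 ± 0.26, beside Prrx1 at -0.39 ± 0.17 and Thy1 at 1.28 ± 0.57, SE). Of 9 leukocyte markers, 2 lay below 0 and 7 above, with a median of 0.95, and 1 was higher (Cd3e, which differed by 2.38 ± 0.70 without a value on dexamethasone 1, beside Adgre1 at 2.83 ± 1.31 and Lyz2 at 1.63 ± 0.74, SE). The call on Cd3e ended with quantile normalization, with the replicate block and without vehicle 1 or 2. Of 9 endothelial and epithelial markers, 3 lay below 0 and 6 above, with a median of 1.08 and 0 past either threshold (Pecam1 1.56 ± 0.71, Kdr 1.77 ± 1.27, Krt18 1.25 ± 0.75, SE). After median centring the medians were -0.78 for mesenchymal, 0.645 for leukocyte and 0.833 for endothelial and epithelial markers, against 0.02 for all features.

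The median leukocyte marker ran from -0.83 to 1.39 over the dexamethasone arrays and from -0.82 to 0.50 over the vehicle arrays, and 4 of the 9 passed the low-signal filter. The median chemokine receptor ran from -0.43 to 1.68 over the dexamethasone arrays and from -0.94 to 0.88 over the vehicle arrays. The median endothelial or epithelial marker ran from -0.31 to 2.24 over the dexamethasone arrays and from -0.25 to 0.85 over the vehicle arrays. By their labels the cultures were of a single line. Any part of such cells in the values of Ccl5, Ccl11, Cxcl1, Cxcl2 and Cxcl10 was not tested. Ratios to a pool do not show whether a marker is expressed at all, so the labelled cell type cannot be checked by level here.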

How the data were processed

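Total RNA of C3H10T1/2 cells was measured on 6 two-colour arrays, 3 dexamethasone and 3 vehicle. The authors deposited 1 value per probe and array, read here as log2 ratios of sample to pool. Ratios of small whole numbers fall on that scale, but no source states the scale or direction. On 4 arrays a few deposited values exceed 100 in size, so those columns were recorded as a score. The authors used limma, per the submitters' processing notes, with background correction and normalization not given in the sources used here. Scanner intensities and depth were not used here, and the number of arrays limits the precision.

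Of 38467 probes, 29456 had 1 symbol, 760 several and 8251 were unlisted in the probe annotation. Probes of a gene were averaged, and unnamed probes were kept singly. The 27046 features with at least 2 values per group were fitted with limma 3.58.1 in R 4.3.3, two-sided, with Benjamini-Hochberg adjustment, after a check on simulated data. Missing values were dropped, not imputed. The low-signal filter removed 15355 probes. The members and lists were chosen with earlier results of these data known. Named genes are the 9 chemokines, up to 3 per other list by smallest p, and the 5 most like Ccl2 and Ccl7. Ccr2, Ccr10, Cxcr2, Cxcr4 and the neighbours Ccl1, Ccl3, Ccl9 and Pf4, and Ccl17, were named outside that rule after their values were seen. So were Irf1, Tnfaip3, Relb, Nfkb2 and Nfkbia. P-values measure the spread between these arrays. Alternatives were a replicate block, an array set block, centring, quantile normalization, filters, array weights, a robust prior, probe medians and leaving out each array.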

Additional observations from a re-analysis of the deposited data

How the results depend on the processing

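Ccl2, Ccl7 and Cxcl5 remained lower at an unadjusted p under 0.05 in all 15 alternatives, with differences from -2.64 to -1.70 for Ccl2, from -3.01 to -2.20 for Ccl7 and from -2.33 to -1.20 for Cxcl5. Cxcl1 turned to -0.38 with quantile normalization and ran from -0.26 to 1.23 when 1 array was left out. The number of the 9 higher at an unadjusted p ran from 0 to 4, with 1 (Cxcl10) without vehicle 3 and 4 without dexamethasone 1. Features passing adjustment numbered 0, but 29 after the filter and 5 among those with values on all 6 arrays. Features at an unadjusted p under 0.05 numbered 1468, 3269 with array weights, and 695 to 6947 with 1 array left out, the highest without dexamethasone 1. The share of them that was higher was 81.7%, but 61.6% with quantile normalization, 65.7% with the filter, 67.7% with the array set block and 93.9% without vehicle 3. Probe by probe, 0 passed, 44 with the filter, and 0 to 140 with 1 array left out. The 29 after the filter became 0 with median centring, 0 with the array set block, 10 with centring on the probes kept, and 0 to 934 with 1 array left out. These combinations with the filter were chosen after seeing the data, and the cause of the changes was not tested. With the replicate number as a block, 0 passed adjustment, 1329 passed unadjusted and 0 passed after the filter, where Ccl2 and Ccl7 had limma adjusted p of 0.536. The labels do not say that a replicate number marks a shared day or batch, so the numbers were not taken as pairs. Deviations of same-numbered arrays correlated at 0.278, -0.173 and 0.347 (Spearman, across features). Arrays numbered 1 and those numbered 3 share an array set and those numbered 2 do not, so these values cannot decide on pairing.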

Other observations

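The array held 2 further probes annotated to both Art3 and Cxcl10, overlapping genes, which belong to neither alone. Probe mMC012532 stood at 1.42, 1.58 and 1.00 on dexamethasone 1, 2 and 3, against -1.88, -2.31 and 1.81 on vehicle 1, 2 and 3. Vehicle 3 lay above every dexamethasone value, and the other vehicle arrays lay below them. Probe mMA034563 stood at -3.36 and 0.00 on dexamethasone 1 and 2 and had no value on dexamethasone 3, against -1.53, -0.79 and 2.91 on vehicle 1, 2 and 3. Their differences of 2.13 ± 1.18 and -1.87 ± 1.87 (SE) had opposite signs.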
